A study of Mus musculus with 189 samples.

Results

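A set of 9 genes, Timp2, Gpm6a, Actr3b, Wfdc1, Pcp4l1, Lsamp, Zfand5, Kalrn and Plbd2, was followed through 187 single cells of the mouse mast cell lineage. They are 9 of the 46078 genes in the count table. They were chosen on measured values, as the genes with the largest ratio of mature mast cells over progenitors among 2133 genes with at least 50 CPM (a gene's read count scaled to the same total of mouse gene reads in every group or cell) in mature mast cells and a read in at least 50% of those cells. That ratio is therefore given as a description only. The last gene inside was Plbd2, with a log2 ratio of 2.03. Just outside lay Mcpt4 at 1.98, Cadm1 at 1.78, Mrgprb1 at 1.77 and Dennd6a at 1.73.

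The study profiled cells of the peritoneal cavity from 4 female C57BL/6 mice by full-length single-cell RNA sequencing. All cells were sorted as live, lineage-negative, c-Kit-positive and positive for the high-affinity IgE receptor FcεRI. Mature mast cells were gated as granular cells with little integrin β7, and basophil-mast cell progenitors (BMCPs) as less granular cells with much of it. The labels name no treatment or genetic change, and the age of the mice is not given in the sources used here. Kept cells, with at least 100000 reads on mouse genes, numbered 94 mature mast cells and 93 BMCPs of 94 and 95. BMCPs were divided at 100 CPM of Gzmb, a granule serine protease of cytotoxic lymphocytes, into 33 Gzmb-low and 60 Gzmb-high cells. No Gzmb-low cell exceeded 27.9 CPM of Gzmb and no Gzmb-high cell was below 542.7 CPM, so few cells lay near the division. It is still a range of a measured gene and not a cell type. Because the mouse of origin of a cell is not labelled, a group counts as 1 pooled sample, and no difference between groups was tested. Intervals of pooled levels are 95% Poisson intervals of read counts that leave out variation between cells, mice and amplification reactions. Intervals of shares are 95% binomial intervals that treat each cell as independent and leave out variation between mice. Whether share intervals overlap is a description and not a test.

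Mast cells mature in tissues from progenitors that arrive through the blood, and fill with granules of proteases, histamine and heparin as they do so. The peritoneal mast cell of the mouse is the standard example of the connective tissue type. Several of the 9 genes are known mainly from the nervous system: Gpm6a encodes a proteolipid-family membrane glycoprotein of neurons, Lsamp a glycolipid-anchored adhesion molecule of the IgLON family, Pcp4l1 a small relative of the calmodulin-binding protein Pcp4, and Kalrn the guanine exchange factor kalirin, which activates small GTPases such as Rac in dendritic spines. The others are not neural by name: Timp2 encodes a secreted inhibitor of metalloproteinases, Wfdc1 a secreted protein with a whey acidic protein domain, Actr3b a paralog of the actin-nucleating subunit Arp3, Zfand5 a zinc finger protein that binds ubiquitin, and Plbd2 a lysosomal protein of the phospholipase B-like family.

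Reads on mouse genes per cell ran from 561600 to 2152221 in mature mast cells, from 477525 to 2040154 in Gzmb-low BMCPs and from 344022 to 2091665 in Gzmb-high BMCPs. Reads per spike-in (ERCC) read, a measure of RNA content, had medians of 939 in mature mast cells, 731 in Gzmb-low BMCPs and 497 in Gzmb-high BMCPs, and genes detected per cell had medians of 4134.5, 3895 and 3593.5. The part of RNA content in the results below was not tested. BMCPs number 46 and 80, both Gzmb-low, held 49765 and 43636 CPM of the B cell gene Cd74 and only 112.7 and 160.4 CPM of the mast cell gene Cpa3. Neither well held any of the 9 genes at 50 CPM, and the main results on Gzmb-low BMCPs are also given without them.

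Markers of neurons were measured to check the name given to these genes. Of 20 neuron markers, 5 reached 5 CPM in either group, and 6, among them Snap25, Rbfox3, Stmn2 and Uchl1, had no read in any kept cell. Tubb3, the neuronal tubulin, had 3 reads over the mature mast cells together and 1 over the BMCPs. Summed over the list, mature mast cells ranged from 0 to 1095 CPM with a median of 5.65, Gzmb-low BMCPs from 0 to 547.6 with a median of 1.40, and Gzmb-high BMCPs from 0 to 935.2 with a median of 0. The most abundant in mature mast cells were Ncam1, a neural adhesion molecule, with 67.4 CPM in mature and 15.6 CPM in progenitor cells, and Eno2, a glycolytic enzyme, with 31.8 and 26.2 CPM. At 50 CPM or more, Ncam1 was present in 17 mature mast cells, 5 Gzmb-low BMCPs and 0 Gzmb-high BMCPs. The defining neuron genes were thus at or near 0, and the 9 genes are described here by name and not as a neural program.

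Markers of other cell types were measured in the same way. Of 10 glia markers, 1 reached 5 CPM, Mbp, at 8.20 CPM in mature and 36.8 CPM in progenitor cells. Of 12 mesothelial and fibroblast markers and of 12 macrophage markers, 0 did, and the macrophage sum was highest in 1 mature mast cell, at 214.1 CPM. Of 10 B cell markers 8 did, and their sum reached 101563 CPM in the B cell wells, 7444 CPM in the highest Gzmb-high BMCP and 1357 CPM in the highest mature mast cell, with medians of 182.9 CPM in mature mast cells, 14.8 in Gzmb-low and 5.29 in Gzmb-high BMCPs. The immunoglobulin gene Ighm made up most of this in mature mast cells, with 227.8 CPM and 45 of 94 cells at 50 CPM, while Cd79a, a chain of the B cell receptor complex, had 0.0842 CPM there. The part of these reads in the results below was not tested. All 12 mast cell markers were above 5 CPM, and their sum had medians of 280390 CPM in mature mast cells, 274086 in Gzmb-low BMCPs and 135909 in Gzmb-high BMCPs. Of 6 basophil markers 5 were above 5 CPM, with medians of the sum of 1109, 714.5 (788.7 without the B cell wells) and 3697 CPM in the same order.

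The 9 genes were high in some mature mast cells, near 0 in others, and rare or absent in Gzmb-high BMCPs, with Gzmb-low BMCPs in between. All 9 had a log2 ratio of mature mast cells over all BMCPs (1 CPM added to each pooled value) of at least 2, as did 3.81% of the 10556 genes that reached 5 CPM on one side or the other. The genes were picked on that ratio, so nothing is read from this count. The members' ratios ran from 2.03 to 2.69 with a median of 2.22, beside a median of -0.25 over all those genes. When the BMCPs were divided, the members' median was 1.07 for mature mast cells over Gzmb-low BMCPs and 5.43 for Gzmb-low over Gzmb-high BMCPs, beside -0.05 and -0.29 over all genes. Against Gzmb-low BMCPs, 6 of the 9 reached a log2 ratio of 1, as did 17.5% of genes, and 0 reached 2, as did 9.07%. Without the B cell wells the members' median over Gzmb-low BMCPs was 0.97, and fewer of the 9 reached 1. Kalrn (193.5 CPM in mature against 102.3 in Gzmb-low cells) and Zfand5 (55.6 against 27.9) then fell below it. Against Gzmb-high BMCPs, 9 of the 9 reached 2, as did 7.59% of genes. Between the Gzmb-low and the Gzmb-high BMCPs, 8 of the 9 reached 2, as did 9.55% of genes, and 0 were at -1 or less, as were 27.6% of genes. These comparisons share cells with the one that chose the genes. Low levels in Gzmb-high BMCPs were favoured by that choice, and nothing is read from the counts against them.

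**Figure D1:**
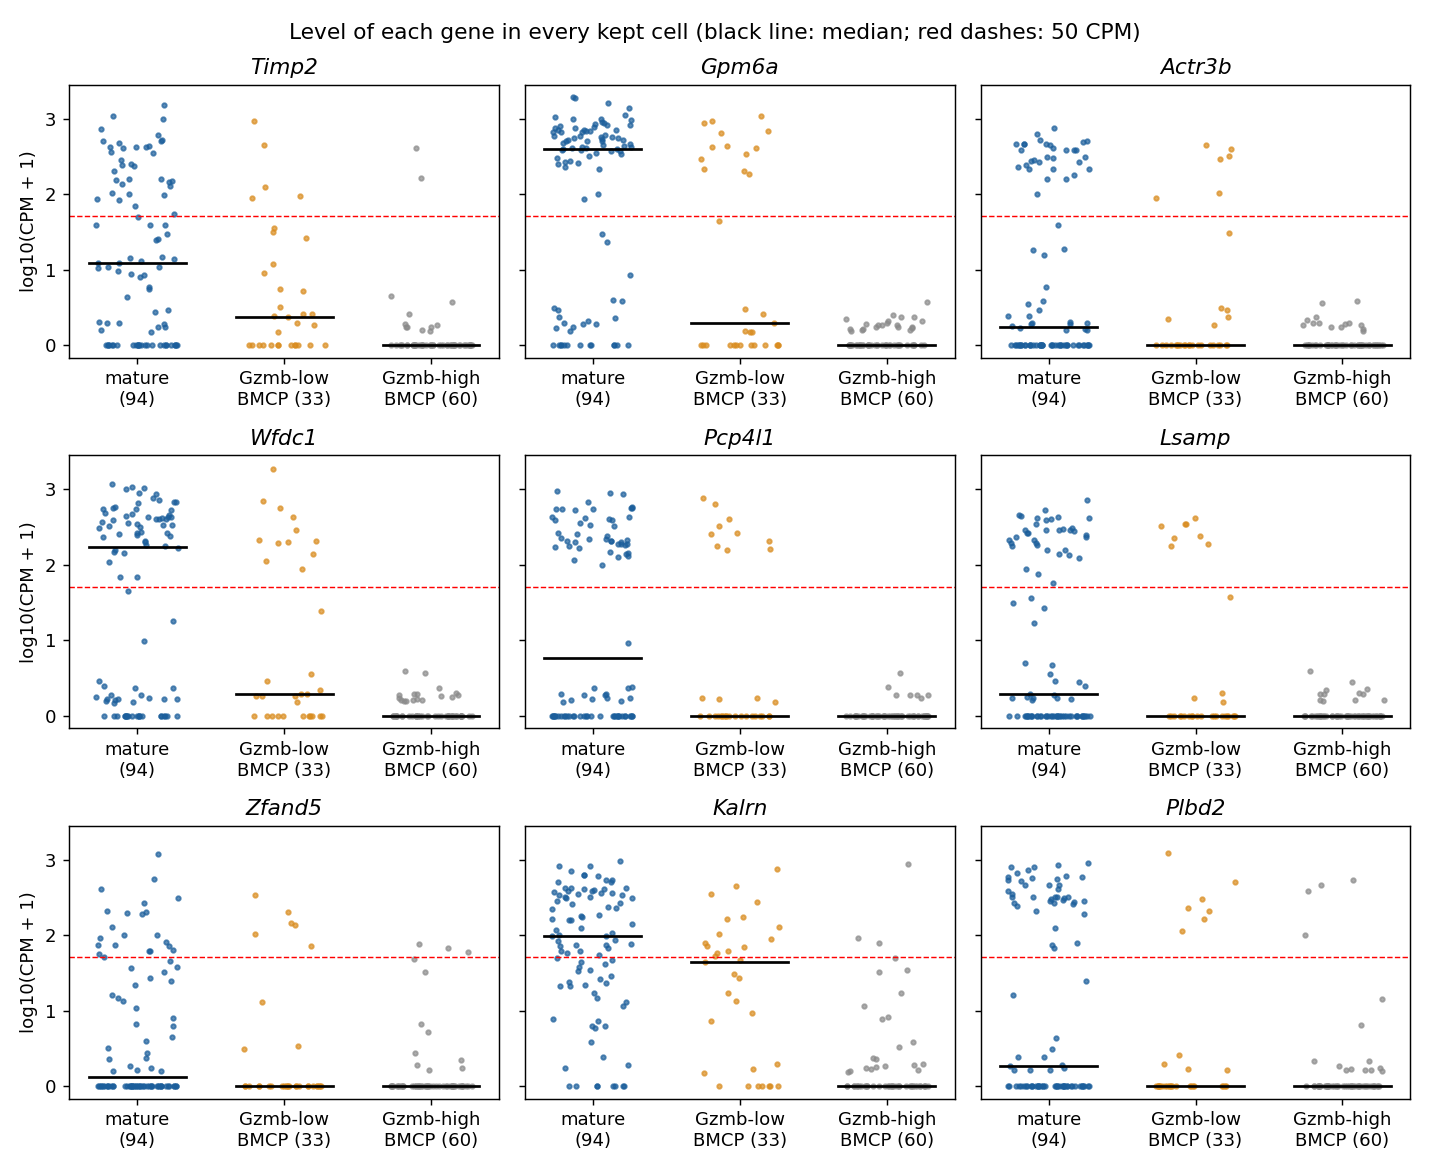
Level of each gene in every kept cell, as log10(CPM + 1), in 94 mature mast cells, 33 Gzmb-low BMCPs and 60 Gzmb-high BMCPs. Each point is a cell, the black line is the median of the cells and the red dashes mark 50 CPM; in Gpm6a, Actr3b, Wfdc1, Pcp4l1 and Lsamp no Gzmb-high BMCP lies above the dashes, and most cells of the other groups lie well above or well below them.

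A level of 50 CPM was used to call a gene present in a cell. For comparison, Gzmb itself was at most 15.9 CPM in any mature mast cell. Whether those reads, or reads of the 9 genes below 50 CPM, were stray or low expression was not tested. For most of the 9 genes few cells fell between, and the cells at or above 50 CPM held 94.4% or more of each gene's reads in mature mast cells. For Pcp4l1 no mature mast cell lay from 10 to 50 CPM, for Gpm6a, Wfdc1 and Plbd2 2 cells did, and for Actr3b and Lsamp 4 did. Kalrn was graded, with 18 mature mast cells in that range, followed by Timp2 with 14 and Zfand5 with 11.

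A group of 5 genes, Gpm6a, Actr3b, Wfdc1, Pcp4l1 and Lsamp, were at 50 CPM in none of the 60 Gzmb-high BMCPs, for which the exact interval reaches up to 5.96%. The highest level of any of them in a Gzmb-high BMCP was 2.91 CPM. Their pooled reads in these 60 cells numbered from 7 for Pcp4l1 to 23 for Gpm6a. Among all 2133 genes that met the minimum for the ranking, 9 (0.422%) were likewise at 50 CPM in no Gzmb-high BMCP, and 5 of those 9 were these members. The members were ranked on mature mast cells over all BMCPs, most of them Gzmb-high. Part of this overlap was thus built in, and nothing is read from it. The other 4, seen after the values were computed, were C2, a complement component, Il6ra, the interleukin 6 receptor chain, Slc16a1, a monocarboxylate transporter, and Gnai1, an inhibitory G protein subunit. Unlike the members, Il6ra, Slc16a1 and Gnai1 had no lower pooled level in Gzmb-low BMCPs (160, 223.7 and 74.1 CPM) than in mature mast cells. The ranking on mature over progenitor levels favoured that difference too.

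Sequences before RefSeq starts on GRCm38.p6 are shown because they differed in base composition. Such starts were found for 3 of the genes missing from Gzmb-high BMCPs and 3 of the others. Actr3b, Wfdc1 and Plbd2 were not matched. Each line gives the 250 bases before a RefSeq start, 5′ to 3′ in the direction of transcription, with CpG dinucleotides in capitals. Gpm6a at chr8:54954478-54954727 (plus strand), Pcp4l1 at chr1:171196269-171196518 (minus strand) and Lsamp at chr16:39984114-39984363 (plus strand) come first, and Timp2 at chr11:118355412-118355661 (minus strand) and Zfand5 at chr19:21272028-21272277 (plus strand) follow.
Gpm6a: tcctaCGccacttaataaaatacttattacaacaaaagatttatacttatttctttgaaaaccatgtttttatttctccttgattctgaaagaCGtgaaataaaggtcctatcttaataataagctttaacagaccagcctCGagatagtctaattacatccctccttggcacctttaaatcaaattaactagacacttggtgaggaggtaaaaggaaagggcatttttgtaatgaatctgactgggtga
Pcp4l1: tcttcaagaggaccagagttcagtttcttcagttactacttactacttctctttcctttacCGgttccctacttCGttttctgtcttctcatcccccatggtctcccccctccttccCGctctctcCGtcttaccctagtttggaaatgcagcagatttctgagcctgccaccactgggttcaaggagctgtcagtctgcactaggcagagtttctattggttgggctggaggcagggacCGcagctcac
Lsamp: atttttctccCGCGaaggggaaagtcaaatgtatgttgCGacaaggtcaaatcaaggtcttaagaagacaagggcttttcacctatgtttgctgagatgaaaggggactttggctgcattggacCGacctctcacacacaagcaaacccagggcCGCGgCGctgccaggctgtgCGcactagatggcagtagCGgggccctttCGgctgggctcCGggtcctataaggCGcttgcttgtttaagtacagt
Timp2: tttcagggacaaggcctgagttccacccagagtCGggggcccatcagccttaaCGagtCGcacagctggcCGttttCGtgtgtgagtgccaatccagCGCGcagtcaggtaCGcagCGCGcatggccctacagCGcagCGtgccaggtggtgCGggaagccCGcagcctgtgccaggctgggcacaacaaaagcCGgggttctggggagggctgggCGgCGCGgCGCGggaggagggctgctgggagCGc
Zfand5: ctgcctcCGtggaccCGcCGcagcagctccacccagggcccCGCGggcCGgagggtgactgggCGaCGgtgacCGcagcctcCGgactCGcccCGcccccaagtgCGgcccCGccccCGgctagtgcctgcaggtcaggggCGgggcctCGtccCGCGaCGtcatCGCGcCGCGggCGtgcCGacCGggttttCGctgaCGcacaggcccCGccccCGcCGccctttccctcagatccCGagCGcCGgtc

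CpG dinucleotides numbered 3 in this Gpm6a window, 5 in that of Pcp4l1 and 12 in that of Lsamp, against 21 for Timp2 and 35 for Zfand5. The median over 32851 promoter windows of this length was 6, and 2.97% of them had as many as Zfand5. G and C bases made up 33.6%, 51.6% and 53.2% of the first group and 68% and 78% of the second, beside a median of 52.4%. The Kalrn window had 60.8%, and the further windows of Gpm6a and Lsamp 44.4% and 56.4%. The order was not complete: Kalrn had 9 CpG dinucleotides, fewer than this Lsamp window, and a further start each of Gpm6a and Lsamp had 1 and 3. The windows of Timp2 and Kalrn (chr16:34514028-34514277, minus strand) and the further Lsamp window lie inside the gene spans given below. The windows compared are thus not all upstream of the annotated genes. Which start these cells used was not measured. The windows were searched on both strands for 4 motifs. Of all windows, 9.99% held AGATAA, the motif bound by GATA factors, and 6.02% held the E-box motif CACGTG. A further E-box motif, CATGTG, was in 12.3% of all windows. The AP-1 motif TGANTCA was in 6.75%. None of the 8 windows of the members held any of them, which says only that these letters were not there. The comparison of base composition was chosen after the values were seen.

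Gpm6a (ENSMUSG00000031517; chromosome 8, 54954843 to 55060871 in GRCm38, plus strand) was at 50 CPM in more mature mast cells than the other 8. It ranged over mature mast cells from 0 to 1913 CPM with a median of 401, over Gzmb-low BMCPs from 0 to 1078 with a median of 0.951 (1.62 without the B cell wells), and over Gzmb-high BMCPs from 0 to 2.70 with a median of 0. It was present in 65 of the 94 mature cells (69.1%, exact interval 58.8 to 78.3), in 13 of 33 Gzmb-low BMCPs (39.4%, 22.9 to 57.9) and in 0 of 60 Gzmb-high BMCPs (0 to 5.96%). The mature and Gzmb-low intervals did not overlap, but they did without BMCPs number 46 and 80. The pooled level was 428.3 CPM in mature mast cells (424.6 to 432.1), 190.5 CPM in Gzmb-low BMCPs (186.4 to 194.6) and 0.301 CPM in Gzmb-high BMCPs (0.191 to 0.452). Where the gene was present, the median cell had 555.2 CPM among mature mast cells and 418.2 CPM among Gzmb-low BMCPs.

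Wfdc1 (ENSMUSG00000023336; chromosome 8, 119666365 to 119688222, plus strand) ranged over mature mast cells from 0 to 1180 CPM with a median of 170.3. Over Gzmb-low BMCPs it ranged from 0 to 1824 with a median of 0.942, and over Gzmb-high BMCPs from 0 to 2.91. At 50 CPM it was found in 54 of the 94 mature cells (57.4%, 46.8 to 67.6) and in 12 of 33 Gzmb-low BMCPs (36.4%, 20.4 to 54.9), intervals that overlapped. The highest Gzmb-low cell, BMCP number 50, held 2215 of the 6292 reads of all BMCPs, and the log2 ratio of mature mast cells over all BMCPs went from 2.22 to 2.81 without it. The highest level of Wfdc1 in any cell was thus in a progenitor.

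Pcp4l1 (ENSMUSG00000038370; chromosome 1, 171173262 to 171196268, minus strand) had the sharpest separation of cells with and without it. It ranged over mature mast cells from 0 to 956.5 CPM with a median of 4.85, and over Gzmb-low BMCPs from 0 to 755.9 with a median of 0. Cells with it numbered 46 of 94 among mature mast cells (48.9%, 38.5 to 59.5) and 10 of 33 among Gzmb-low BMCPs (30.3%, 15.6 to 48.7). In the cells that had it, the median was 230.7 CPM for mature cells and 255.9 CPM for Gzmb-low BMCPs. The intervals of the shares overlapped, and with lower cell numbers alone the log2 ratio of mature mast cells over Gzmb-low BMCPs was -0.15, against 0.78 over all cells.

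Lsamp (ENSMUSG00000061080; chromosome 16, 39984361 to 42181679, plus strand), the adhesion molecule, ranged over mature mast cells from 0 to 711.8 CPM with a median of 0.92, and over Gzmb-low BMCPs from 0 to 407.9 with a median of 0. It was present in 36 of the 94 mature cells (38.3%, 28.5 to 48.9) and in 8 of 33 Gzmb-low BMCPs (24.2%, 11.1 to 42.3), at median levels of 264.1 and 284.4 CPM in those cells. Actr3b (ENSMUSG00000056367; chromosome 5, 25759997 to 25850688, plus strand) ranged from 0 to 748.3 CPM with a median of 0.746 in mature mast cells, and from 0 to 444.8 with a median of 0 in Gzmb-low BMCPs. Actr3b was found in 31 of the 94 mature cells (exact interval 23.6% to 43.4%) and in 6 of 33 Gzmb-low BMCPs (18.2%, 6.98 to 35.5), at median levels of 307.9 and 306.9 CPM. For both genes the intervals of the shares overlapped between these groups, and the level in the cells that had the gene was alike.

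The other four genes were present in a few Gzmb-high BMCPs. Kalrn (ENSMUSG00000061751; chromosome 16, 33969073 to 34573532, minus strand) ranged over mature mast cells from 0 to 954.4 CPM with a median of 96.6, over Gzmb-low BMCPs from 0 to 739.7 with a median of 42.5, and over Gzmb-high BMCPs from 0 to 869 with a median of 0. It was present in 59 of the 94 mature cells (62.8%, 52.2 to 72.5), in 15 of 33 Gzmb-low BMCPs (45.5%, 28.1 to 63.6) and in 3 of 60 Gzmb-high BMCPs (5%, 1.04 to 13.9). Its level where present differed most between mature mast cells and Gzmb-low BMCPs, with medians of 280.7 and 101.8 CPM. BMCP number 20 held 703 of the 1184 Kalrn reads of Gzmb-high BMCPs. Without that cell the log2 ratio of Gzmb-low over Gzmb-high BMCPs went from 2.55 to 3.71, and that of mature mast cells over Gzmb-high BMCPs from 3.56 to 4.72.

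Timp2 (ENSMUSG00000017466; chromosome 11, 118301069 to 118355740, minus strand), the metalloproteinase inhibitor, ranged over mature mast cells from 0 to 1499 CPM with a median of 11.2, over Gzmb-low BMCPs from 0 to 930.1 with a median of 1.40, and over Gzmb-high BMCPs from 0 to 404 with a median of 0. Timp2 was found in 35 of the 94 mature cells (37.2%, 27.5 to 47.8), in 5 of 33 Gzmb-low BMCPs (15.2%, 5.11 to 31.9) and in 2 of 60 Gzmb-high BMCPs (3.33%, 0.406 to 11.5). BMCP number 71 alone held 943 of the 2628 reads of all BMCPs. Without it the log2 ratio of mature mast cells over all BMCPs went from 2.69 to 3.29, that over Gzmb-low BMCPs from 1.62 to 2.46, and that of Gzmb-low over Gzmb-high BMCPs from 2.47 to 1.64. Without BMCP number 11, which held 388 of 587 reads, the ratio of Gzmb-low over Gzmb-high BMCPs was 3.73 and that of mature mast cells over Gzmb-high BMCPs went from 4.10 to 5.35.

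Plbd2 (ENSMUSG00000029598; chromosome 5, 120483282 to 120503625, minus strand), the lysosomal gene, ranged over mature mast cells from 0 to 914 CPM with a median of 0.879, over Gzmb-low BMCPs from 0 to 1213 and over Gzmb-high BMCPs from 0 to 544.4, both with a median of 0. It was present in 40 of the 94 mature cells (42.6%, 32.4 to 53.2), in 7 of 33 Gzmb-low BMCPs (21.2%, 8.98 to 38.9) and in 4 of 60 Gzmb-high BMCPs (6.67%, 1.85 to 16.2). The Gzmb-low and Gzmb-high intervals overlapped. BMCP number 8 held 1288 of the 3095 Gzmb-low reads, and without it the log2 ratio of mature mast cells over Gzmb-low BMCPs went from 1.16 to 1.89 and that of Gzmb-low over Gzmb-high BMCPs from 1.77 to 1.04. Leaving out BMCP number 29 or 86, with 608 and 650 of the 1548 Gzmb-high reads, moved the latter to 2.42 or 2.49, and the ratio of mature mast cells over Gzmb-high BMCPs from 2.93 to 3.58 or 3.65. The Plbd2 exons share 360 bases with those of Sds on the opposite strand, which had 0 CPM in either group.

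Zfand5 (ENSMUSG00000024750; chromosome 19, 21272278 to 21286840, plus strand), which helps deliver ubiquitin-tagged proteins to the proteasome, was at 50 CPM in fewer mature mast cells than the other 8. It ranged over mature mast cells from 0 to 1170 CPM with a median of 0.306, over Gzmb-low BMCPs from 0 to 343.6 and over Gzmb-high BMCPs from 0 to 76.1, both with a median of 0. It was present in 22 of the 94 mature cells (23.4%, 15.3 to 33.3), in 6 of 33 Gzmb-low BMCPs (18.2%, 6.98 to 35.5) and in 3 of 60 Gzmb-high BMCPs (5%, 1.04 to 13.9). Its median level where present was lower in mature mast cells, at 98.5 CPM, than in Gzmb-low BMCPs, at 140.3 CPM, and mature cell number 21 alone held 24.1% of the mature reads.

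**Figure D2:**
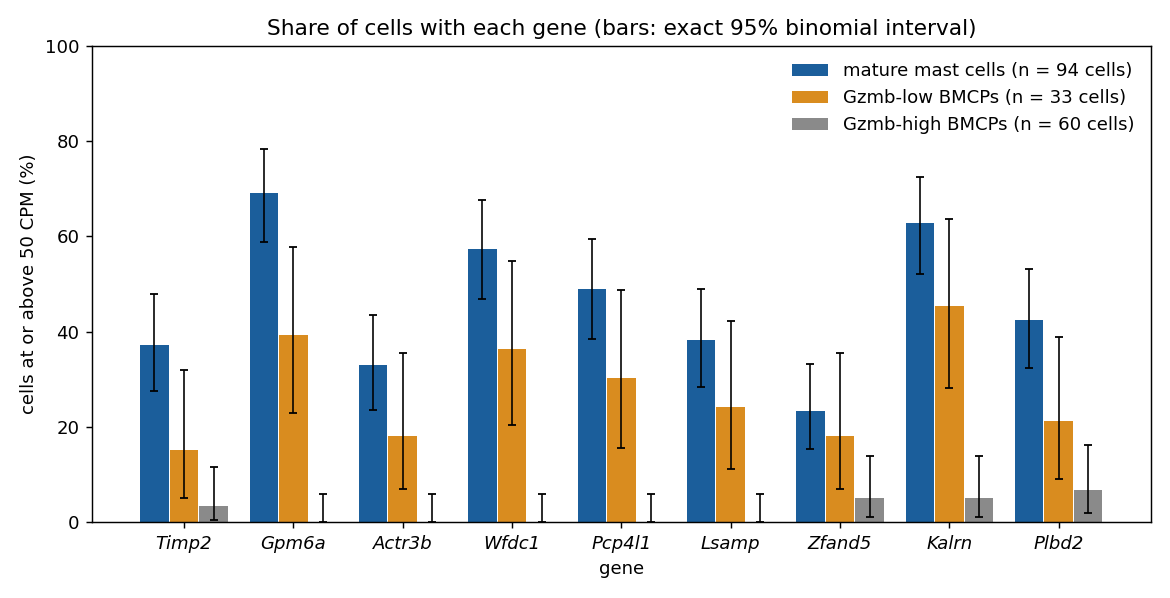
Share of cells at or above 50 CPM of each gene in 94 mature mast cells, 33 Gzmb-low BMCPs and 60 Gzmb-high BMCPs. Whiskers are exact 95% binomial intervals that treat each cell as independent and leave out variation between mice. Mature shares run from 23.4% for Zfand5 to 69.1% for Gpm6a, and Gzmb-high shares are at most 6.67%, the value for Plbd2.

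Across the 9 genes, the share of cells was higher in mature mast cells than in Gzmb-high BMCPs with intervals that did not overlap in 9 of 9, as it was for 5.19% of all 10544 genes at 5 CPM in either group. The choice of the genes on mature over progenitor levels built this in, and nothing is read from it. Between Gzmb-low and Gzmb-high BMCPs the intervals were separate for 6, Gpm6a, Actr3b, Wfdc1, Pcp4l1, Lsamp and Kalrn, with or without the B cell wells. They were so for 1.37% of genes with the wells and 1.66% without. The ranking over all BMCPs, most of them Gzmb-high, favoured low Gzmb-high shares here too. The genes counted beside the members needed only 5 CPM, a lower minimum than the 50 CPM the members had passed. Nothing is read from this count either. Between mature mast cells and Gzmb-low BMCPs the intervals were separate for 1, Gpm6a, and for 0 without those wells, beside 0.398% and 0.265% of genes. The ratio of mature to Gzmb-low shares ran from 1.29 for Zfand5 to 2.46 for Timp2. The ratio of the median levels where present ran from 0.702 for Zfand5 to 2.76 for Kalrn. After thinning each cell to 100000 reads, the share of cells with any read of Gpm6a was 73.4% in mature mast cells, 42.4% in Gzmb-low BMCPs and 1.67% in Gzmb-high BMCPs, and that of Kalrn was 86.2%, 63.6% and 15%.

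Per kilobase of exon, the pooled level in mature mast cells was highest for Wfdc1 at 161.4 CPM per kilobase, followed by Gpm6a at 133.2 and Pcp4l1 at 103. Actr3b followed at 48.2, Timp2 at 37.9 and Plbd2 at 24.4 CPM per kilobase. Kalrn at 8.05, Lsamp at 6.01 and Zfand5 at 5.17 CPM per kilobase were lowest. The exon lengths join every annotated transcript, 24050 bases for Kalrn and 17213 for Lsamp, so genes with long or many transcripts are pushed down in this order.

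Most mature mast cells had several of the 9 genes, in differing combinations. The median mature mast cell had 4 of the 9 at 50 CPM (quartiles 3 and 5), with a range from 1 to 7. The 94 cells showed 71 different combinations, and the most common was shared by 4 cells. Gzmb-low BMCPs had a median of 2 (quartiles 1 and 3) and a range from 0 to 6, and without BMCPs number 46 and 80 a median of 3. At least 3 genes were present in 87 of the 94 mature cells (92.6%, 85.3 to 97.0), in 16 of 33 Gzmb-low BMCPs (48.5%, 30.8 to 66.5; 51.6% of 31 without the B cell wells) and in 0 of 60 Gzmb-high BMCPs (0 to 5.96%). Of the Gzmb-high BMCPs, 48 had none of the 9 genes and 12 had 1. Those 12 carried Plbd2 in 4 cells, Kalrn and Zfand5 in 3 each and Timp2 in 2. No mature mast cell lacked all 9. Summed over the 9 genes, the median cell had 1480 CPM among mature mast cells, 673.9 CPM among Gzmb-low BMCPs (801.9 without the B cell wells) and 2.47 CPM among Gzmb-high BMCPs. The genes were chosen for reads in mature mast cells and a high ratio over BMCPs. Higher numbers and sums in mature mast cells were thus built in, and nothing is read from them.

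**Figure D3:**
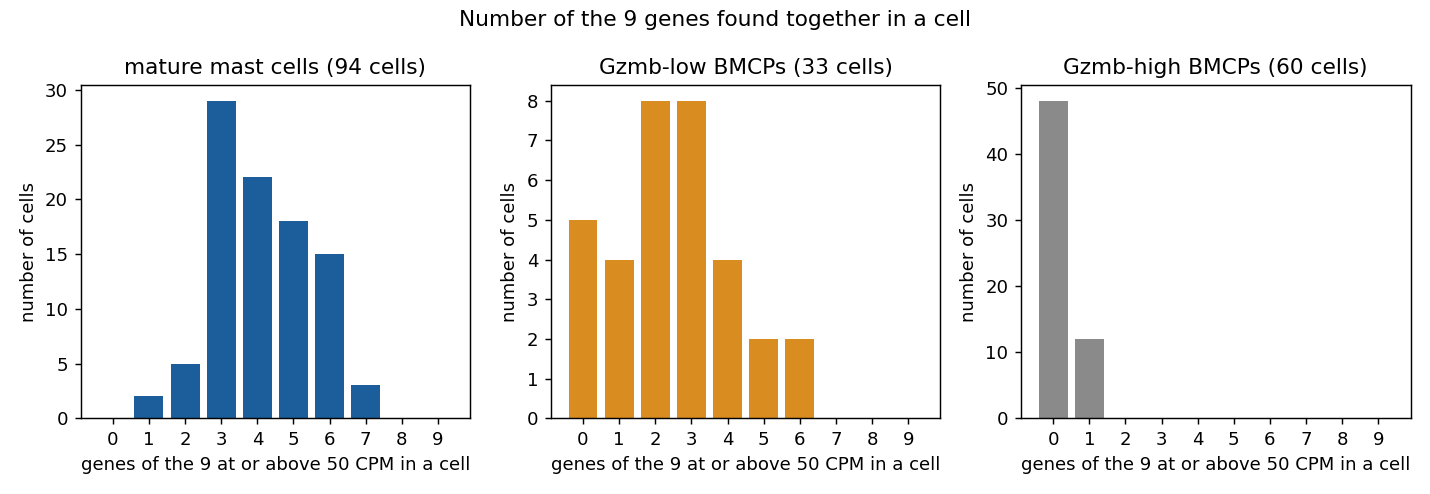
Number of the 9 genes at or above 50 CPM in a cell (x axis) against the number of cells (y axis) in each group. Mature mast cells run from 1 to 7 genes with a peak of 29 cells at 3, Gzmb-low BMCPs from 0 to 6, and 48 of the 60 Gzmb-high BMCPs sit at 0.

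The genes varied largely apart from each other among mature mast cells. Over 94 cells, the 36 pairs of genes had a median Spearman correlation of 0.014 on log2(CPM + 1), with 20 pairs above and 16 below 0. The highest was 0.16, for Timp2 and Zfand5. The lowest was -0.31, for Actr3b and Kalrn, which were present together in 13 cells, while Actr3b was present in 31 and Kalrn in 59. The variance over cells of the number of genes present was 1.83, and the variances of the 9 genes taken singly summed to 2.08. In the 33 Gzmb-low BMCPs the median pair correlation was 0.096, the range was from -0.26 to 0.38, and the variance of the number present was 2.82 beside a sum of 1.76. Without BMCPs number 46 and 80 these were 0.051, -0.34 to 0.34, 2.57 and 1.82. Cells share mice, depth and amplification, and many values are 0, so weak correlations are given as a description.

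**Figure D4:**
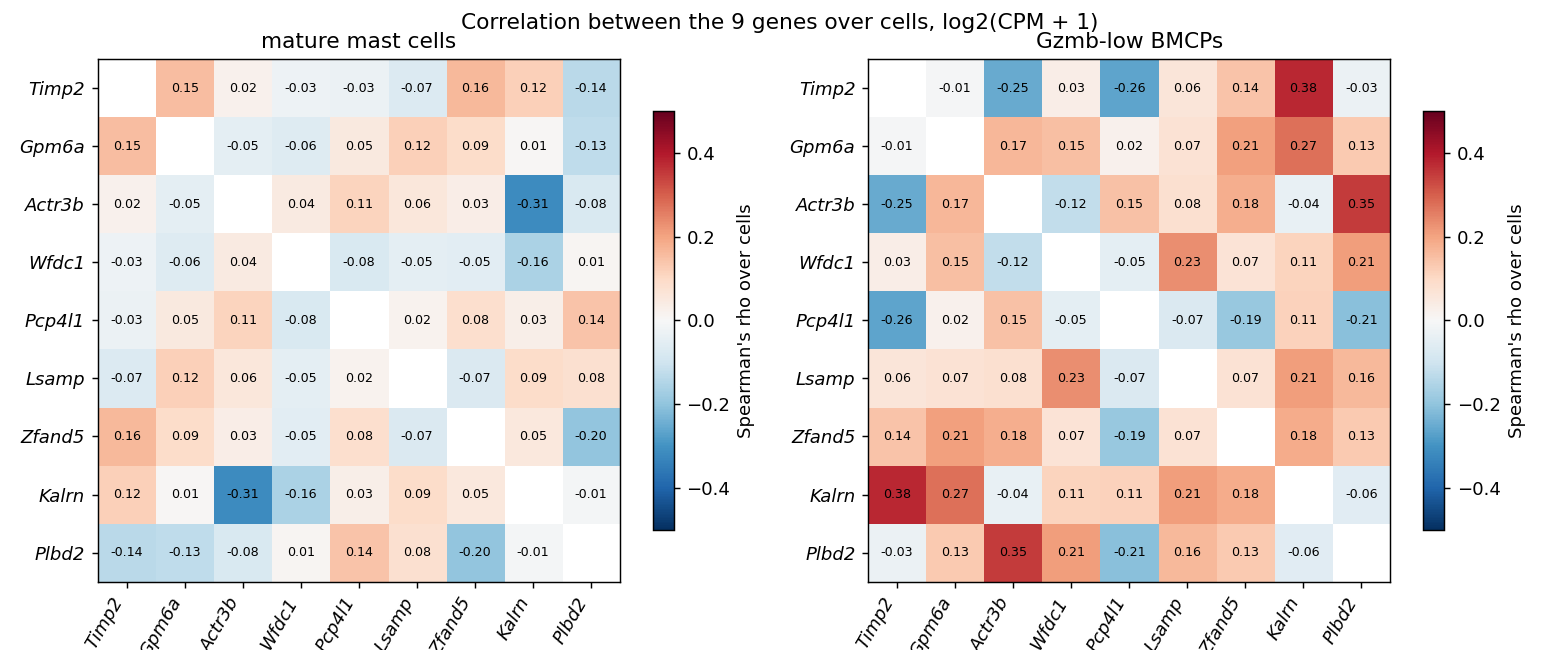
Spearman correlation between each pair of the 9 genes over 94 mature mast cells (left) and 33 Gzmb-low BMCPs (right), on log2(CPM + 1). Mature values lie between -0.31 and 0.16, and Gzmb-low values between -0.26 and 0.38.

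In Gzmb-low BMCPs the number of genes present went with RNA content. Its Spearman correlation with reads per ERCC read was 0.53 over 33 cells and 0.43 over the 31 cells without the B cell wells. With genes detected it was 0.55 and 0.49. In mature mast cells the same correlations were 0.14 and 0.26 over 94 cells, and with total reads the correlation was -0.05.

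The protease Mcpt4, a chymase of connective tissue mast cells, was used beside Gzmb to place the genes among BMCPs. With Mcpt4 at 1000 CPM or more and Gzmb under 100 CPM, 24 BMCPs had a median of 3 of the 9 genes (range 0 to 6), and 22 of them had at least 1. With both proteases at those levels, 10 BMCPs had a median of 0, and 2 of them had 1 gene, Kalrn in each. With Gzmb alone, 10 of 50 BMCPs had a gene and none had more than 1. With neither, 9 BMCPs, the B cell wells among them, had a median of 2 (range 0 to 5), and 6 of them had at least 1. Without those wells, 7 BMCPs had a median of 2, and 6 of them had at least 1. Cells with both proteases thus lacked nearly all of the genes, and most cells with neither had some. Low levels in Gzmb-high cells were favoured by the choice of the genes. Over all 93 BMCPs the number of genes present had a Spearman correlation of 0.63 with Mcpt4 and of -0.63 with Gzmb, values that share cells and depth. Within Gzmb-low BMCPs these were 0.27 and -0.22 (0.15 and -0.21 without the B cell wells), and within Gzmb-high BMCPs 0.36 and -0.0096, so the pooled values largely restate the division at Gzmb. Reads per ERCC read had medians of 836 in the Mcpt4 cells, 532 in the cells with both, 485.4 in the Gzmb cells and 626.1 in the cells with neither, and their part in this pattern was not tested.

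**Figure D5:**
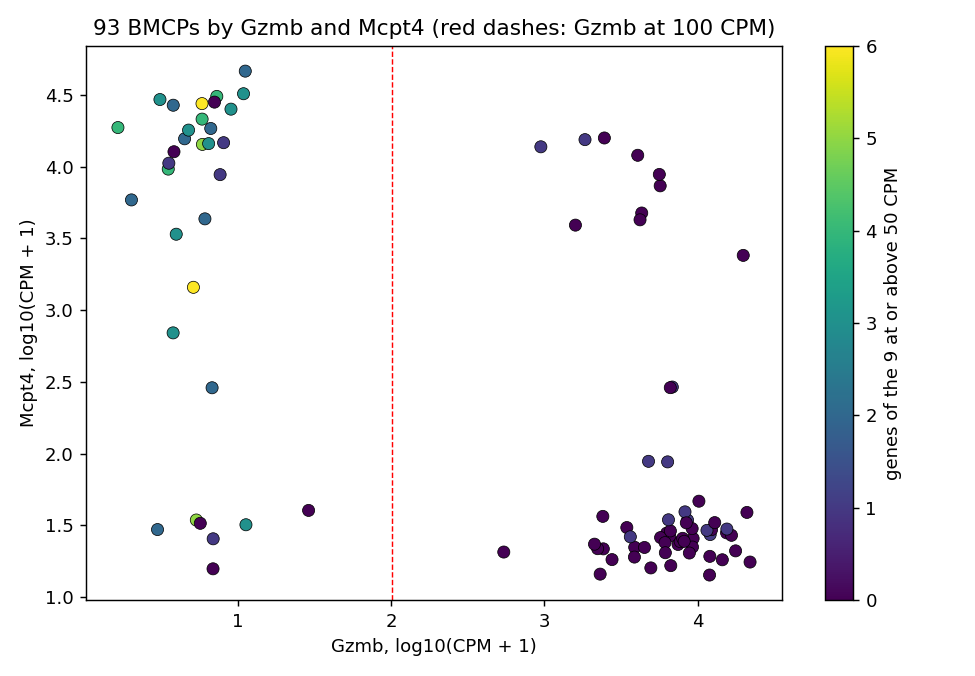
The 93 BMCPs by Gzmb (x axis) and Mcpt4 (y axis), both as log10(CPM + 1), coloured by how many of the 9 genes were at or above 50 CPM; the red dashes mark 100 CPM of Gzmb. The 10 cells at upper right with both proteases have 0 or 1 gene. Cells at left have up to 6 with Mcpt4 at 1000 CPM or more, and up to 5 below that level.

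The cells were numbered in the labels. Those with lower numbers (mature 1 to 47, BMCP 1 to 48) were set against the rest, because these blocks also lie apart in the column order. The labels name 2 plates. What the numbering stands for, and whether it follows the plates, is not given in the sources used here. The median mature mast cell had 4 of the genes in either block, and the 5 genes absent from Gzmb-high BMCPs were absent in both. Single genes differed: among 47 mature mast cells in each block, Zfand5 was present in 5 and 17, Timp2 in 12 and 23, and Plbd2 in 24 and 16. Among the Gzmb-low BMCPs, Kalrn was present in 3 of 14 and in 12 of 19, and Plbd2 in 6 of 14 and in 1 of 19. In these blocks the log2 ratio of Gzmb-low over Gzmb-high BMCPs was -0.26 for Kalrn with lower numbers and -1.05 for Plbd2 with higher numbers, against the pooled direction. That of Pcp4l1 for mature mast cells over Gzmb-low BMCPs was -0.15 with lower numbers.

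Most relatives of the 9 genes that reached 5 CPM had a log2 ratio between -1 and 1, with Gpm6b and 2 lysosomal genes at 1 or more. Among all genes, 9.9% had a log2 ratio of mature mast cells over BMCPs of 1 or more and 19.2% had one of -1 or less. In the Arp2/3 complex, which nucleates branched actin, 0 of 9 other subunits reached 1, and Actr3 alone was at -1 or less, at -1.03 with and -0.92 without the B cell wells. The level of Actr3, which encodes Arp3, was 64.6 CPM in mature cells and 163.2 CPM in Gzmb-high BMCPs, while its paralog Actr3b had 116.9 and 0.197 CPM. Per kilobase of exon, Actr3b stood at 48.2 and Actr3 at 13.9 CPM in mature cells, and at 0.081 and 35.3 CPM in Gzmb-high BMCPs. In 94 mature mast cells Actr3b alone was present in 19, Actr3 alone in 26, both in 12 and neither in 37. In 60 Gzmb-high BMCPs Actr3 alone was present in 30 and neither in 30. Reads that match both paralogs may have been dropped or assigned by the authors' counting, which was not tested.

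Of the metalloproteinase inhibitors and their targets, 2 of 9 genes besides Timp2 reached 5 CPM, the membrane proteases Adam10 and Adam17, with log2 ratios of -0.93 and -0.02. Timp1, Timp3 and Timp4 were below that level, as were the gelatinases Mmp2 and Mmp9. In the proteolipid family Gpm6b reached 7.78 CPM among mature cells, from 2 cells at 50 CPM, against 0.0251 CPM among BMCPs. Its log2 ratio of 3.10 was above that of any of the 9. None of the other 4 IgLON genes, Pcp4, or the other 8 genes of the WFDC list reached 5 CPM. Lsamp, Pcp4l1 and Wfdc1 were thus each the only gene of their family list above 5 CPM.

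For Kalrn, 6 of 8 related genes passed 5 CPM and 0 reached a log2 ratio of 1 in either direction. Its closest relative Trio had pooled levels of 16.5 CPM (mature) and 31.5 CPM (BMCPs), and in Gzmb-low BMCPs it had 42.9 CPM with and 15.5 CPM without the B cell wells. Rac2, the blood cell GTPase of the family on which such factors act, was level at 3177 and 3089 CPM, and Rhog had 166.2 and 193.8 CPM. Of the 6 other Zfand genes 0 reached a log2 ratio of 1 and 2 were at -1 or less, Zfand2a at -1.04 and Zfand4 at -1.51. Zfand6, the closest in structure to Zfand5, had a log2 ratio of 0.20. Among 12 lysosomal genes listed beside Plbd2, 11 passed 5 CPM, 2 had a log2 ratio of 1 or more, among them Lamp1 at 1.04, and the median of the 11 was 0.50. Plbd1, the paralog of Plbd2, had 0 reads.

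Among the 5 genes most like the 9 over all 187 kept cells, by Spearman correlation with the mean z-score of the 9 on log2(CPM + 1), were Mrgprb1 at 0.69, Slc31a2 at 0.68, Mcpt4 at 0.66 and Pla2g7 at 0.64, out of 2124 genes with a median of 0.072. Mrgprb1 encodes a mast cell receptor, Slc31a2 a copper transporter and Pla2g7 an enzyme that breaks down platelet-activating factor. Each of these 4 was present in at least 89 of 94 mature mast cells, unlike any of the 9, and in 11 to 20 of 60 Gzmb-high BMCPs. Their pooled levels in mature mast cells were also higher, from 1357 CPM for Slc31a2 to 23090 CPM for Mcpt4. Those of the 9 genes ran from 55.6 to 428.3 CPM. Shares at a fixed 50 CPM depend on level, and its part in this difference was not tested. Within mature mast cells alone the highest correlations were 0.35 for Ybx1 and Dtx3, 0.34 for Hs2st1 and Tcn2 and 0.33 for Tmem160, with a median of 0.021, so no gene followed the 9 closely there. The first list restates the difference between the groups that chose the genes.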

How the data were processed

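Read counts per gene in single cells were deposited by the authors as whole numbers, 1 column per cell, without normalization; per the submitters' processing notes reads were aligned with GSNAP and counted with HTSeq 0.5.3p3 on mm10, with the annotation release and strand use not given in the sources used here. Per the labels' protocols, cDNA was amplified with 23 PCR cycles and no molecular identifiers, so PCR copies count as reads, and cells were index-sorted singly, so no doublet caller was run. The 92 ERCC and 5 summary rows (14.4% of reads without a feature, 3.11% ambiguous, 14.1% not aligned) stayed out of totals. Symbols matched 45143 of 46078 identifiers, and coordinates and exon lengths came from GENCODE M21 on GRCm38.

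Counts were summed over cells and scaled to CPM, with 1 CPM added before log2, using Python 3.11.15, numpy 2.4.6, pandas 2.3.3 and scipy 1.17.1; TMM factors came from edgeR 4.0.16. Counts carry exact Poisson and shares exact Clopper-Pearson intervals. The pooled ratio and the thinning were tested on simulated data. Members and lists were chosen with earlier results of these data known. Named genes were the members, listed relatives and markers, the 5 most alike and the 4 next in rank. BMCPs number 6 and 93, with 3978 and 36972 reads, were left out. No 2 cells had identical counts. A few relatives, markers and alike genes are not reported here.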

Additional observations from a re-analysis of the deposited data

How the results depend on the processing

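No paired analysis was possible because the numbers in the labels name single cells and pair none. With each group 1 pooled sample, no call was tested, and depth limits only levels near 1 read. All 9 genes stayed higher in mature mast cells than in all BMCPs under each of the 14 alternatives. Their median log2 ratio of 2.22 was 3.11 under ERCC scaling (2.91 without BMCP number 55), where all genes had a median of 0.63, 2.30 with TMM, 2.41 without granule proteases in the totals, 2.55 from medians of cells, 2.10 with 5 CPM added, 2.45 without the top cell of each gene, and 2.50 and 2.31 with lower or higher cell numbers. Over Gzmb-low BMCPs 1.07 became, in the same order, 1.58, 1.15, 1.15, 1.17, 0.98, 1.29 and, with lower cell numbers, 1.33. BMCP number 55 is Gzmb-high and does not enter this ratio. The median was 0.97 or 1.14 with Gzmb divided at 10 or 1000 CPM, and 0.97 without the B cell wells. Pcp4l1 was -0.15 with lower numbers. Over Gzmb-high BMCPs 6.46 became 7.06 (7.03 without BMCP number 55), 6.60, 6.88, 2.55, 4.39 and 6.40 in that order. It was 6.52 and 6.29 with lower or higher numbers, and 8.51 with 0.1 CPM added. With Gzmb divided at 10 CPM, which moves 3 cells, it was 4.14. Gzmb-low over Gzmb-high, 5.43, became 5.51 under ERCC scaling, 5.48 with TMM, 5.77 without granule proteases, 5.35 with means of cells, 0 with medians of cells, 7.41 and 3.41 with 0.1 and 5 CPM added, 5.03 without top cells, 3.15 and 5.35 with Gzmb divided at 10 and 1000 CPM, 5.52 without the B cell wells, and 5.85 and 5.04 with lower or higher numbers; Kalrn was -0.26 with lower and Plbd2 -1.05 with higher numbers. The median mature mast cell had 5 genes at a minimum of 10 CPM, and the median pair correlation was 0.064 under ERCC scaling. Alternatives with the B cell wells, BMCP number 55 or cell numbers were added with the data in view; the cause of each move was not tested.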
